A study of Mus musculus with 12 samples.

Results

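The enzymes described here are the cytochromes P450 of the Cyp1 to Cyp4 families (Cyp), the UDP-glucuronosyltransferases (Ugt), the cytosolic glutathione S-transferases (Gst) and the sulfotransferases (Sult) of the mouse colon. Members were all genes annotated as protein coding whose symbol begins with Cyp1, Cyp2, Cyp3 or Cyp4 and a subfamily letter and number, with Ugt or Sult and a number, or with Gst, a class letter (a, m, p, t, o or z) and a number, and that stood in both deposited expression tables. There were 145 such genes of 52636 in the tables: 81 Cyp, 22 Ugt, 21 Gst and 21 Sult. No expression value entered that rule, though the families were chosen with earlier results of these data known. Of the 145, 55 averaged 0.5 FPKM or more across the 12 libraries and were tested. FPKM relates the fragments of a gene to its length and to the size of the library, so levels of different genes can be set side by side. The tested members were 25 of 81 Cyp, 7 of 22 Ugt, 18 of 21 Gst and 5 of 21 Sult.

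RNA sequencing had profiled colon adenoma (titled T) and adjacent normal colon (titled N). All mice were C57BL/6 and carried ApcMin/+, a truncating Apc allele that leads to intestinal adenomas, so no group was free of the Apc mutation. Mice labelled ApcMin/+; Cul4bWT (WT) were set against mice labelled ApcMin/+; Cul4bdeltaIEC (KO), in which Cul4b, a scaffold of CRL4 ubiquitin ligases, carries a deletion restricted to intestinal epithelial cells (IEC), so other cells of the tissue keep it; the Cre line is not given in the sources used here. Each of the 4 groups (WT N, KO N, WT T and KO T) held 3 libraries, 1 each from mice aged 3, 4 and 5 months, and values of a group are always given in that order of age. The labels do not state that libraries came from separate animals or from which region of the colon, so a p-value here reflects the spread among libraries, which may be technical. The question put to the members was how their levels differ between adenoma and adjacent colon, and whether loss of epithelial Cul4b changes them.

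Between 18263611 and 25321931 reads per library fell in genes. The 5-month libraries stood in a table of their own with its own scaling, and all differences between groups were taken within an age. Cul4b itself lay at 7.88 to 14.96 FPKM in the 6 WT libraries and at 0.9198 to 2.99 FPKM in the 6 KO libraries, so the targeted gene fitted the genotype label of every library. The KO N library of 3 months stood apart from the other 5 N libraries. Its summed level of 6 smooth muscle markers was 608 FPKM against 27.1 to 111, and its summed level of 10 mature colonocyte markers was 2552 FPKM against 8760.5 to 23551. Without it, the KO counts and the named differences that changed their call or moved by over 1.5 times are given below. Of 8 epithelial markers, all were above the test's minimum level in these colon samples and 4 fell in T of WT and 2 in T of KO.

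Xenobiotic metabolism is usually described in phases. Cytochromes P450 are haem enzymes of the endoplasmic reticulum that oxidise drugs, fatty acids, steroids and plant compounds, with electrons from the reductase Por. Ugt enzymes then attach glucuronic acid, Sult enzymes attach sulfate from the donor PAPS, and Gst enzymes attach glutathione to electrophiles, after which transporters carry the products out of the cell. In the colon many of these enzymes are made by surface epithelial cells that meet microbial and dietary compounds. Which cells made each member was not resolved here.

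Most of the 145 genes gave few or no reads in the colon. Of the 90 members below the minimum, 55 stayed under 0.1 FPKM in every library and 16 were listed at 0 in all 12 libraries (7 Cyp, 3 Ugt and 6 Sult, no Gst). Many of these are well known from liver. Cyp1a1, the classical target of the aryl hydrocarbon receptor, reached at most 0.1303 FPKM in any library, Cyp3a11, the main hepatic Cyp3a enzyme, at most 0.183, and Cyp2e1, the ethanol-inducible form, at most 1.11. The 9 Cyp3a genes had 1 tested member (Cyp3a13), the 15 Cyp2c genes had 4, the 9 Sult2 genes had 1 (Sult2b1), and none of the 8 Cyp4a genes was tested, whereas all 7 Gstm and all 3 Gstp genes were. The highest mean among untested members was 0.459 FPKM (Cyp2j9) and the lowest among tested ones 0.668 FPKM (Cyp2w1). Of the 55 tested, 45 reached 0.5 FPKM in the mean of every group, 6 passed only through the N groups (Cyp4b1, Cyp2c66, Ugt2b5, Ugt1a1, Ugt1a6a and Ugt2b36) and 1 only through the T groups (Cyp2b10). Those 7 were tested because of the tissue in which they were high, so counts and medians over tested members are descriptions. Among the 90 untested, 8 had at least 1 group mean of 0.5 FPKM or more. These genes were picked out after their values were seen.

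The families together took a larger share of the reads in every N library than in any T library: 0.313 to 0.637% of reads in genes in N and 0.116 to 0.193% in T. Summed over members, the level was 1533 to 3567 FPKM in N and 471 to 825 FPKM in T. The drop was uneven across families, and for Gst it depended on the measure. Summed Sult was 476 to 900.3 FPKM in N and 14.1 to 40.6 FPKM in T, and summed Cyp 438 to 1826 and 60.6 to 152 FPKM. Summed Ugt was 148 to 375 FPKM in N and 40.2 to 80.6 FPKM in T. None of those 3 sums overlapped between tissues, whereas the Gst sums did, at 462 to 1276 FPKM in N and 324 to 578 FPKM in T. Gst genes therefore made up 14.8 to 38.4% of the members' summed FPKM in N and 68.8 to 79.2% in T. As a share of reads in genes, Gst did not drop, with a median of 0.0696% in N and 0.0783% in T. The most abundant member was Cyp2c55 in 3 N libraries, Sult1d1 in 2 and Gsto1 in 1, and in the 6 T libraries it was Gstp1 in 4 and Gstm5 in 2.

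**Figure D1:**
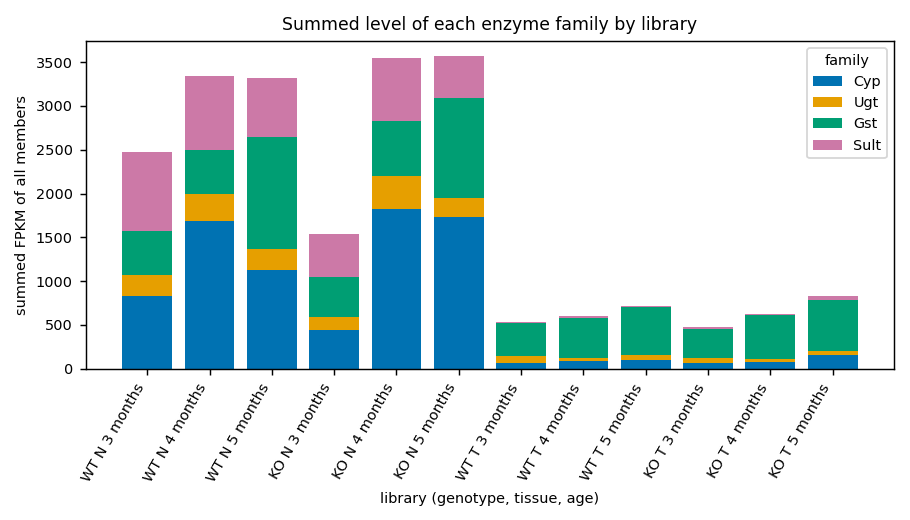
Stacked bars of summed FPKM (linear axis from 0) of all 145 members in each of the 12 libraries, coloured by enzyme family. Bars of the 6 N libraries reach 1533 to 3567 FPKM and those of the 6 T libraries 471 to 825 FPKM, with Gst taking the largest part in T.

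Adenoma differed from adjacent colon in most tested members, and nearly always downwards. In WT, 38 of 55 changed at an adjusted p under 0.05 (limma on log2(FPKM + 1), 12 libraries, adjusted over all 15526 genes tested), 4 higher and 34 lower in T. Among all genes tested 36.1% changed, 16.3% higher and 19.9% lower. In KO, 38 of 55 changed, 2 higher and 36 lower, against 30.0% of all genes (14.0% higher and 16.0% lower). The median T minus N difference of the members was -1.29 in WT and -1.51 in KO on the log2(FPKM + 1) scale, and that of all genes tested 0.0059 and 0.015. With the 2 members that were listed at 0 throughout 1 T group set to their bound, the members' medians were -1.29 and -1.52. Both genotypes shared 33 falling members, which is 33 of 34 in WT and 33 of 36 in KO, and 2 rising ones, Cyp2b10 and Gstm7. The same overlap over all genes tested was not counted, so this sharing cannot be read as particular to the members. As deposited, Gsta3 and Cyp4f18 were called higher and Gstm1 lower in WT and not in KO, Gstm4, Cyp2d12 and Cyp4b1 were called lower in KO and not in WT, and 14 members passed in neither; the test of a genotype difference in these changes, given further on, called none of them. In KO, Gsta3 was called as TPM, and Cyp4f18 as TPM, without the KO N library of 3 months and without 3 months. Without a model, all 3 T libraries lay below all 3 N libraries for 37 members in WT (21.4% of all genes) and 31 in KO (16.1%), and above them for 4 (20.3%) and 2 (16.0%).

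These counts depend on how libraries are scaled. The deposited FPKM were scaled by size factors, and rescaling each library to a constant sum (TPM) moved the median T minus N difference of all genes by 0.75 in WT and 0.55 in KO. Members then called were 11 higher and 26 lower in WT and 9 higher and 30 lower in KO, and no member called before changed sign. Relative to the median of all genes the members' median was -1.29 in WT and -1.53 in KO as deposited and -1.53 and -1.77 as TPM. Markers of cell types moved along with the members. Of 10 mature colonocyte markers 9 fell in each genotype (median -4.19 and -3.89), with summed levels of 2552 to 23551 FPKM in N and 237 to 562 FPKM in T. All 7 goblet cell markers fell and all 4 tested stem cell markers rose in each genotype. The part of such shifts in the members' values was not tested, and in bulk tissue fewer cells of a type and less RNA per cell cannot be told apart. Without the KO N library of 3 months the KO counts were 3 higher and 34 lower. Higher calls numbered 2 in WT without WT N of 3 months or WT T of 5 months and 1 in KO without KO N of 4 months or KO T of 4 or 5 months. Without 5 months there was 1 higher call in each genotype, and without 4 months 1 in KO. Lower calls numbered 22 in WT without 5 months, and 22 in KO where only the 2 KO groups were fitted.

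**Figure D2:**
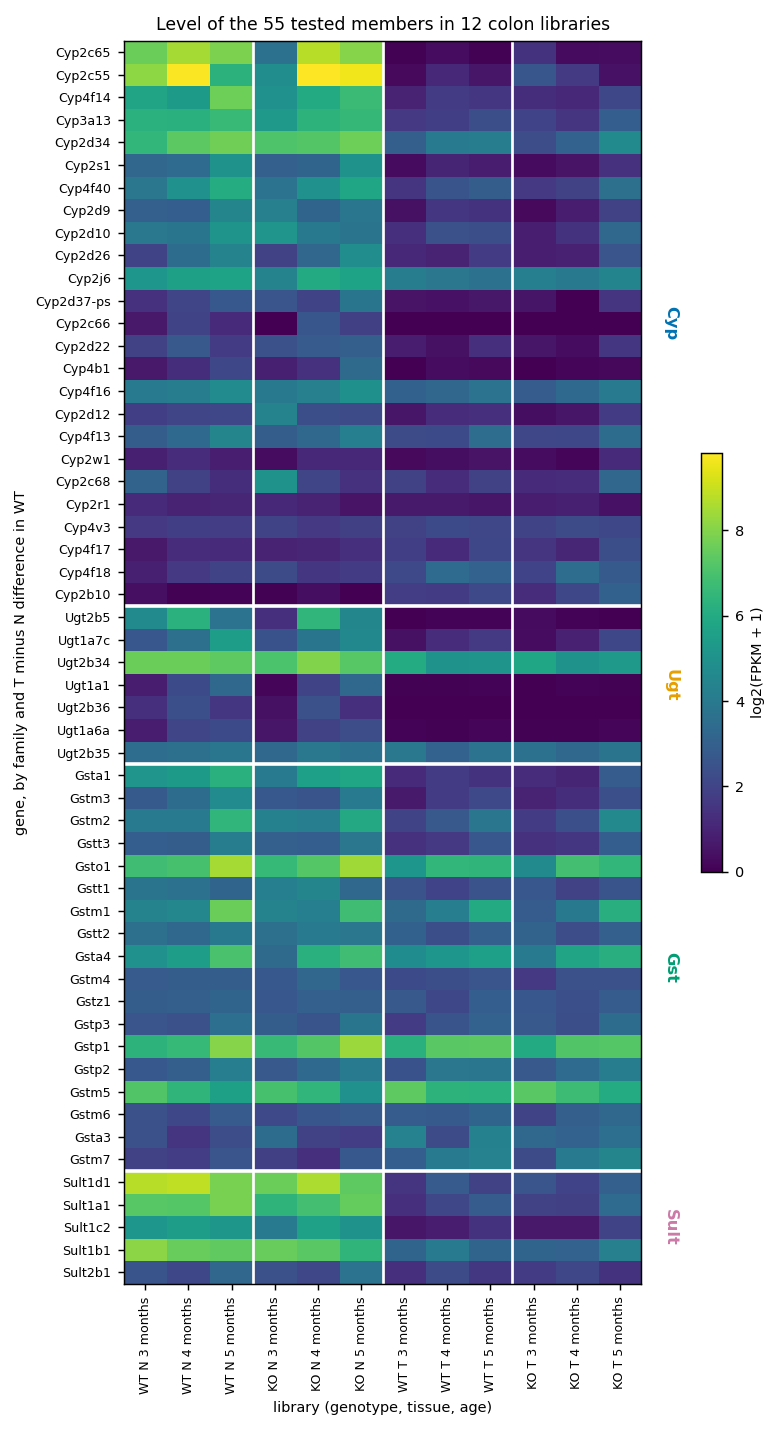
Heat map of log2(FPKM + 1) for the 55 tested members (rows, by family and by T minus N difference in WT) in the 12 libraries (columns). Most rows are darker, that is lower, in the 6 T columns at the right than in the 6 N columns at the left, and the Gst block holds the most rows of even colour.

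Among the cytochromes P450, 16 of 25 tested members fell and 2 rose in WT, and 18 fell and 1 rose in KO, with medians of -1.29 and -1.88 (KO -1.92 with a zero group at its bound). The largest falls of all members were those of Cyp2c65 and Cyp2c55, neighbours on chromosome 19 (chr19:39061015-39093944 and chr19:39007019-39042693, mm10) whose enzymes oxidise fatty acids such as arachidonic acid. Cyp2c55 measured 285, 880.3 and 79.1 FPKM in WT N and 0.176, 1.195 and 0.505 FPKM in WT T. In KO it measured 27.2, 904 and 779.9 FPKM in N and 5.12, 2.21 and 0.393 FPKM in T. Every T library lay below every N library, and the N libraries themselves were far apart. The T minus N difference of Cyp2c55 was -7.44 (SE 1.17, adjusted p = 0.0015) in WT and -6.49 (SE 1.17, adjusted p = 0.0035) in KO. Cyp2c65 measured 194, 358 and 238 FPKM in WT N against 0.0365, 0.257 and 0.0373 in WT T, and 11.8, 437 and 265 FPKM in KO N against 1.69, 0.218 and 0.251 in KO T. Its differences were -7.85 (SE 0.99, adjusted p = 0.00048) and -6.16 (SE 0.99, adjusted p = 0.002), again with no overlap between tissues. In the KO N library of 3 months both genes were low, and without that library the KO differences were -8.24 and -7.78. Leaving out an age ended some of the KO calls: the adjusted p from limma was 0.066 for Cyp2c55 without 4 months, and 0.055 and 0.06 for Cyp2c55 and Cyp2c65 without 5 months.

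The promoters of these genes are shown because they carry the largest falls, each from 250 bases before to 50 after the start site, 5′ to 3′ on the gene's strand (RefSeq, GRCm38.p6). Capitals mark matches to the motif letters searched, which are listed with the promoters of the members that rose. In Cyp2c55 (chr19:39006769-39007068, plus strand) the match is the second CDX2 form, and in Cyp2c65 (chr19:39060756-39061055, plus strand) the matches are the HNF4A core at position -116 and, on the other strand, the antioxidant response element core at -8.
Cyp2c55: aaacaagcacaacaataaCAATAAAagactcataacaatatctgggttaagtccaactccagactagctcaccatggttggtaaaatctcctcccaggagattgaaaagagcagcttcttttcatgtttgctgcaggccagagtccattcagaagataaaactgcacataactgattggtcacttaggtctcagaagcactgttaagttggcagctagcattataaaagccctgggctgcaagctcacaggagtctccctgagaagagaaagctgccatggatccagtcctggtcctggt
Cyp2c65: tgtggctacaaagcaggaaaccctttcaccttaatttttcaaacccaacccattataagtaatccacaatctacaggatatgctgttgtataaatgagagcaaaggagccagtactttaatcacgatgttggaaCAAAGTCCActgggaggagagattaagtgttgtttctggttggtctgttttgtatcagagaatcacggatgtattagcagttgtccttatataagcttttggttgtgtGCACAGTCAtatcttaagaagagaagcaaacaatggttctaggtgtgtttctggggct

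Of the other Cyp2c genes tested, Cyp2c66 fell in both genotypes and Cyp2c68 in neither. Cyp2c66 measured 0.0265, 5.18 and 2.67 FPKM in KO N and was listed at 0 in all 3 KO T libraries. Against a floor of 3 reads per library, on average 0.0607 FPKM, it was at least 43.3-fold lower than the mean of KO N. The KO N library of 3 months was itself under that level, so no fall could be measured at 3 months. Cyp2c66 reached the minimum level only through the N groups, so its fall is a description. Cyp2d34, the most abundant Cyp2d gene, measured 89.97, 162 and 208 FPKM in WT N and 6.79, 15.3 and 16.3 in WT T. It measured 137, 146 and 198 FPKM in KO N and 4.01, 7.46 and 24.2 in KO T. N levels of the genotypes overlapped and lay above all T values, and the differences were -3.49 (SE 0.32, adjusted p = 0.00011) and -3.96 (SE 0.32, adjusted p = 9.5e-05). It lies in a run of 9 Cyp2d genes on chromosome 15 of which 7 were tested, 6 fell in WT and all 7 fell in KO. Genes of that run are close relatives, so reads could be split between them and single levels are uncertain. Cyp3a13, the one Cyp3a gene above the minimum in these libraries, lay at 38.5 to 97.9 FPKM in the 6 N libraries and 1.85 to 6.55 FPKM in the 6 T libraries, with WT and KO differences of -4.45 and -3.93 (adjusted p = 3.1e-05 and 5.4e-05). Cyp4f14, an omega-hydroxylase of fatty acids and leukotrienes, lay at 30.7 to 201 FPKM in N and 0.951 to 3.36 FPKM in T, with differences of -4.85 and -4.40 (adjusted p = 7.0e-05 and 0.00013). Both genes were below every N library in every T library. On chromosome 17, 4 of the 5 tested genes of the Cyp4f run fell in each genotype.

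**Figure D3:**
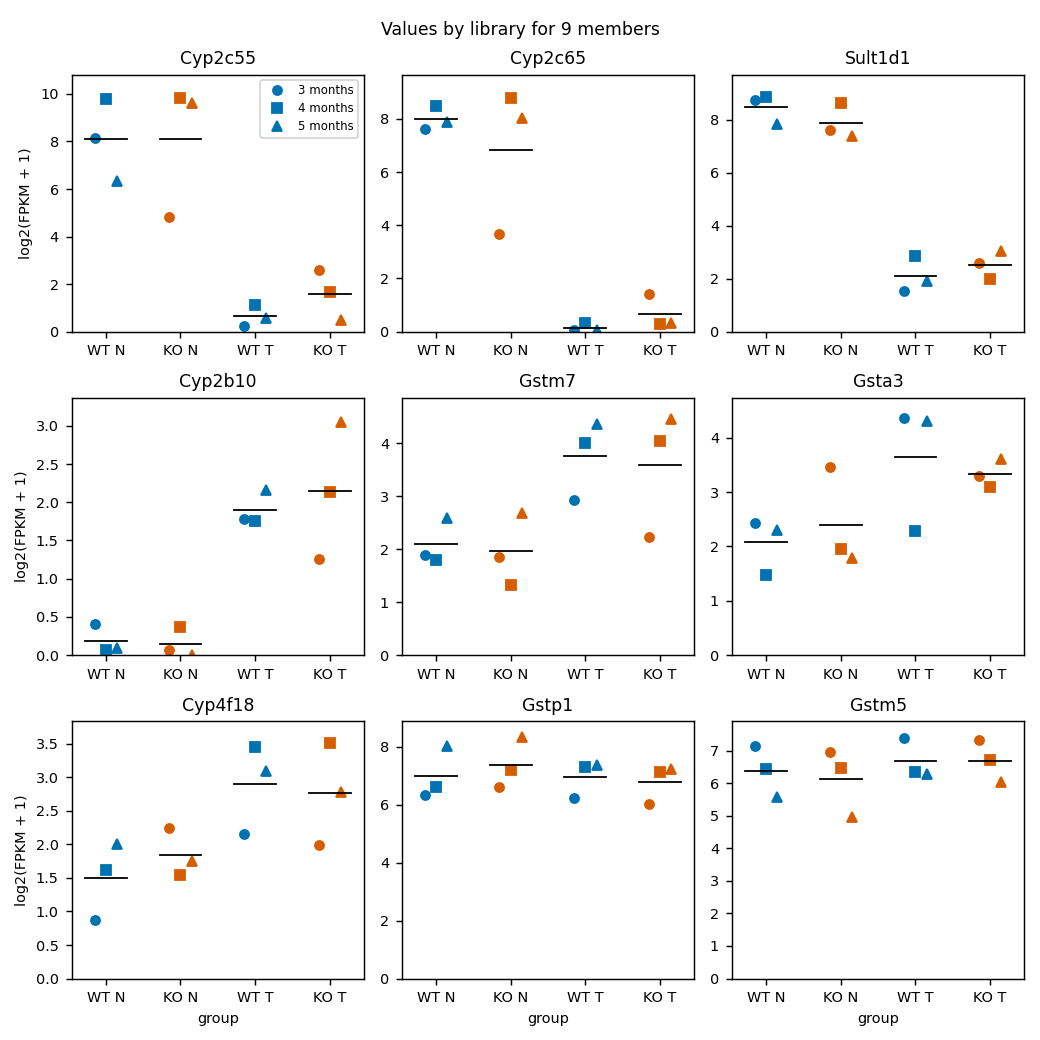
Values by library for 9 members (one panel each, log2(FPKM + 1), axis from 0), with a point for each age, a bar for the group mean, and WT in blue and KO in orange. Cyp2c55, Cyp2c65 and Sult1d1 show no overlap between N and T, Cyp2b10 is higher in all 6 T libraries than in the 6 N libraries, and Gstp1 and Gstm5 overlap.

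All 6 Ugt genes that changed fell, in both genotypes, and the remaining Ugt2b35 did not pass in either. Of those 6, Ugt2b5, Ugt1a1, Ugt1a6a and Ugt2b36 reached the minimum level only through the N groups, so they could be tested only because N was high, and neither the family's count nor its median supports a direction. The medians were -2.03 in WT (-2.17 with a zero group at its bound) and -1.79 in KO. Ugt2b34 was the most abundant, at 196, 195 and 165 FPKM in WT N and 65.4, 30.8 and 32.5 in WT T. The corresponding levels were 131, 246 and 153 FPKM in KO N and 53.9, 31.7 and 37.9 in KO T. It kept the highest Ugt level in every T library, and its differences were -2.17 (SE 0.32, adjusted p = 0.0011) and -2.06 (SE 0.32, adjusted p = 0.0018). Ugt2b5 fell to near 0. It measured 24.3, 76.4 and 12.4 FPKM in WT N and 0, 0.0727 and 0.0581 in WT T, with 1.47, 87.4 and 21.97 FPKM in KO N and 0.222, 0.0565 and 0.0201 in KO T. Its differences were -4.83 (SE 0.91, adjusted p = 0.0035) and -3.97 (SE 0.91, adjusted p = 0.011). The KO call of Ugt2b5 was lost without the KO N library of 5 months (adjusted p = 0.051, limma) or the KO T library of 4 months (0.052), and without the KO N library of 3 months the difference was -5.34. That call was also lost without 4 months (adjusted p = 0.10, limma), without 5 months (0.12) and with only the KO groups fitted (0.056). Ugt2b36 was listed at 0 in all 3 WT T libraries and was at least 46.0-fold lower there than the mean of WT N (floor of 3 reads per library). Ugt2b35 lay at 8.698 to 14.4 FPKM in N and 7.54 to 14.3 FPKM in T, with differences of -0.073 and -0.042 (adjusted p = 0.85 and 0.92), and as TPM the WT difference turned to 0.78 (adjusted p = 0.03). Without the KO N library of 3 months its KO difference was -0.26. Ugt1a1, which conjugates bilirubin, Ugt1a6a and Ugt1a7c fell in both genotypes, but Ugt1a genes are spliced from separate first exons to common last exons. Of their exon bases, 50.3 to 58.9% were shared with 8 other genes on the same strand, and their single levels are uncertain. With both strands counted, the share for Ugt1a1 was 82.7%.

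Sulfotransferases formed the family with the deepest median fall, -4.37 in WT and -3.79 in KO over 5 tested genes, and the 4 Sult1 genes fell in both genotypes. Sult1d1, which sulfates catecholamines and other small phenols, measured 429, 466 and 229 FPKM in WT N and 1.86, 6.15 and 2.78 in WT T. In KO it measured 194, 390.3 and 164 FPKM in N and 4.95, 2.99 and 7.14 in T. The lowest N library was many times above the highest T library, and the differences were -6.40 (SE 0.43, adjusted p = 4.0e-05) and -5.33 (SE 0.43, adjusted p = 9.0e-05). Sult1a1, the general phenol sulfotransferase, measured 153, 149.9 and 229 FPKM in WT N and 1.47, 3.22 and 6.28 in WT T, and 83.8, 118 and 181 FPKM in KO N and 2.703, 2.64 and 9.75 in KO T. Its differences had small errors, -5.37 (SE 0.24, adjusted p = 2.3e-05) and -4.54 (SE 0.24, adjusted p = 3.3e-05). Sult1b1, which sulfates thyroid hormones and phenols, lay at 85.5 to 279 FPKM in N and 7.58 to 18.6 FPKM in T (differences of -4.25 and -3.57). Sult1c2 lay at 16.1 to 47.8 and 0.496 to 3.07 FPKM (-4.37 and -3.79). Adjusted p was 0.00017 and 0.00047 for Sult1b1 and 7.2e-05 and 0.00015 for Sult1c2. Sult2b1, a sterol sulfotransferase, measured 4.79, 3.401 and 8.42 FPKM in WT N and 1.53, 3.77 and 2.01 in WT T, groups that overlapped, and 4.35, 3.28 and 12.2 FPKM in KO N and 2.32, 3.24 and 1.699 in KO T; it did not pass in either genotype. Sult1b1 and Sult1d1 share a stretch of chromosome 5 with Sult1e1 and 10 Ugt2 genes; of the 6 tested genes in it 5 fell in both genotypes.

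Glutathione S-transferases had the family medians nearest 0. Of 18 tested, 8 fell and 2 rose in WT and 8 fell and 1 rose in KO, with medians of -0.57 and -0.65. Gstp1, the pi-class enzyme found in many epithelial tumors, measured 79.7, 95.7 and 261 FPKM in WT N and 73.9, 158 and 163 in WT T. It measured 97.5, 145 and 322 FPKM in KO N and 63.7, 141 and 149 in KO T. Tissues overlapped in both genotypes, and the differences were -0.023 (SE 0.28, adjusted p = 0.96) and -0.59 (SE 0.28, adjusted p = 0.15); as TPM they were 0.87 (adjusted p = 0.017) and 0.058. None of the 3 Gstp genes passed as deposited; their near-identical sequences leave the split between Gstp1 and Gstp2 uncertain. Gstm5 measured 141, 84.8 and 47.04 FPKM in WT N and 168, 79.6 and 76.3 in WT T, and 124, 88.3 and 30.2 and 159, 105 and 64.4 in KO N and KO T. It too overlapped between tissues (differences of 0.28 and 0.56, adjusted p = 0.4 and 0.12). As TPM, however, Gstm5 was called higher in both genotypes, with 1.17 (adjusted p = 0.0025) in WT and 1.21 (adjusted p = 0.0032) in KO.

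Gsta1, an alpha-class enzyme of gut and liver epithelium, had the deepest Gst fall. It lay at 15.5 to 73.6 FPKM in N and 1.02 to 6.203 FPKM in T, with differences of -4.13 (SE 0.38, adjusted p = 0.00011) and -3.40 (SE 0.38, adjusted p = 0.00032). Its chromosome 9 neighbour Gsta4, which conjugates lipid aldehydes such as hydroxynonenal, overlapped between tissues and did not pass in either genotype. Gsto1, the omega-class enzyme, measured 112, 123 and 359 FPKM in WT N and 35.2, 89.4 and 84.2 in WT T. The levels were 94.3, 149.6 and 344 FPKM in KO N and 24.9, 118 and 90.3 in KO T. At each age T was below N, with differences of -1.39 (SE 0.38, adjusted p = 0.02) and -1.38 (SE 0.38, adjusted p = 0.025), but 9 of 22 alternative fits in WT and 10 of 22 in KO lost the call. As TPM the differences were -0.51 (adjusted p = 0.25) and -0.74 (adjusted p = 0.12). Also among them were the fits without the N or T library of 3 months (adjusted p = 0.087 and 0.053 in WT, 0.065 and 0.1 in KO) and those without the N or T library of 5 months (0.09 and 0.092 in WT, 0.098 and 0.1 in KO). The 3 tested theta-class genes, Gstt1, Gstt2 and Gstt3, fell in both genotypes. A share of 13.6% of the exon bases of Gstt3 is common to another gene on the same strand. Gstm5 and Gstz1 shared exon bases on the other strand only, 13.9% and 12.2%.

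The scatter of both genotypes' differences places most members in the quadrant that is lower in T of both genotypes.

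**Figure D4:**
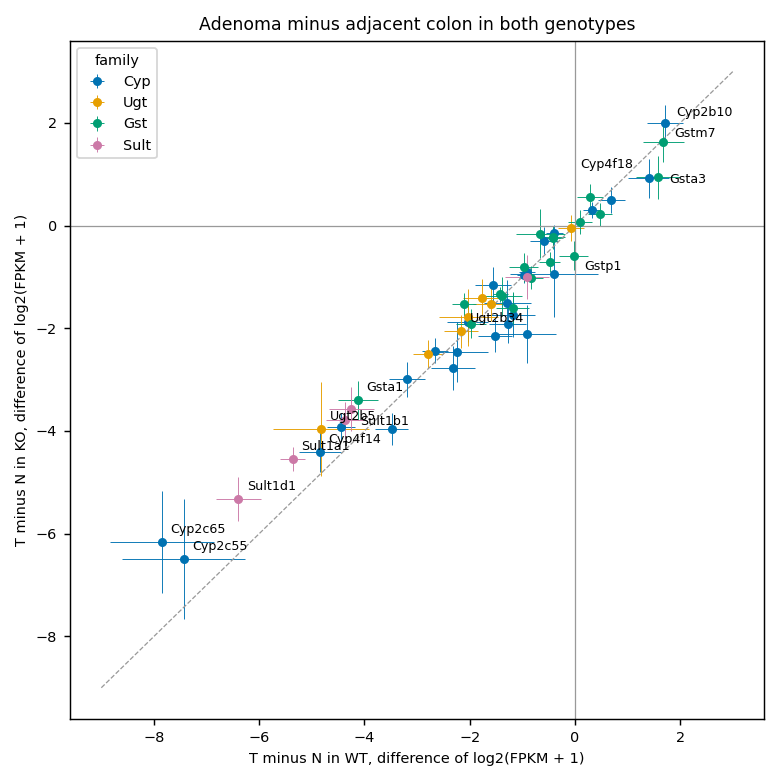
T minus N difference of log2(FPKM + 1) in KO (vertical) against WT (horizontal) for the 55 tested members, coloured by family, with standard errors as bars and the line of equality dashed. Differences run from -7.85 to 1.71 in WT and from -6.49 to 2.0 in KO, and Cyp2b10, Gstm7, Gsta3 and Cyp4f18 stand at the upper right.

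The members that rose were few, and their levels were low to moderate. Cyp2b10 (chr7:25897620-25926624), the classical target of the receptor CAR in liver, measured 0.3201, 0.0491 and 0.0633 FPKM in WT N and 2.43, 2.37 and 3.49 in WT T. In KO it measured 0.0489, 0.293 and 0 FPKM in N and 1.39, 3.38 and 7.29 in T. It was near 0 in all 6 N libraries and above 1 FPKM in all 6 T libraries, and its differences were 1.71 (SE 0.35, adjusted p = 0.0052) in WT and 2.0 (SE 0.35, adjusted p = 0.0029) in KO; the WT call was lost without both tissues of 4 months in both genotypes (adjusted p = 0.054, limma). Cyp2b10 reached the minimum level only through the T groups, so it could be tested only because T was high, and its rise is a description. Gstm7 (chr3:107926334-107931817), a mu-class transferase, measured 2.69, 2.46 and 5.05 FPKM in WT N and 6.64, 15.1 and 19.6 in WT T. In KO it measured 2.61, 1.51 and 5.47 FPKM in N and 3.72, 15.5 and 21.2 in T. WT tissues did not overlap and KO tissues did, and the gene rose by 1.68 (SE 0.38, adjusted p = 0.0087) and 1.63 (SE 0.38, adjusted p = 0.012). The KO call of Gstm7 was lost without the KO N library of 4 months (adjusted p = 0.053), the KO T library of 4 months (0.057) or the KO T library of 5 months (0.054), and without the replicate block the adjusted p was 0.056 in WT and 0.073 in KO. Without 5 months the adjusted p from limma was 0.11 in WT and 0.14 in KO. In KO it was 0.11 without 4 months and 0.077 with only the KO groups fitted.

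Gsta3, an alpha-class transferase, measured 4.43, 1.78 and 3.95 FPKM in WT N and 19.6, 3.89 and 18.8 in WT T, and 10.02, 2.86 and 2.45 FPKM in KO N and 8.85, 7.598 and 11.2 in KO T. It rose in WT by 1.58 (SE 0.42, adjusted p = 0.017). In KO the difference was 0.94 (SE 0.42, adjusted p = 0.13), and the tissues overlapped in both genotypes. As TPM the KO difference was 1.63 (adjusted p = 0.015) and passed. The WT call of Gsta3 was lost without WT N of 3 or 5 months (adjusted p = 0.066 and 0.051), without WT T of 3 or 5 months (0.063 and 0.083) and without the replicate block (0.068). Leaving out 3 months or 5 months altogether also ended that call (adjusted p = 0.079 and 0.092, limma). Cyp4f18, a hydroxylase of leukotriene B4 known from neutrophils, measured 0.828, 2.07 and 3.02 FPKM in WT N and 3.45, 9.92 and 7.54 in WT T, and 3.76, 1.91 and 2.36 FPKM in KO N and 2.99, 10.5 and 5.87 in KO T. It rose in WT by 1.40 (SE 0.38, adjusted p = 0.019), with 0.92 (SE 0.38, adjusted p = 0.1) in KO. In KO it was called without the KO N library of 3 months, at 1.48 (adjusted p = 0.0037), without both tissues of 3 months in both genotypes, at 1.504 (adjusted p = 0.018), and as TPM, at 1.60 (adjusted p = 0.014). In WT, leaving out WT N of 3 or 4 months (adjusted p = 0.075 and 0.069) or WT T of 4 or 5 months (0.078 and 0.066) ended its call. So did leaving out 4 months or 5 months altogether (adjusted p = 0.081 and 0.11, limma) and testing without a filter (0.053). Beside it, all 5 neutrophil markers rose in both genotypes, from a summed 19.8 to 167 FPKM in the N libraries to 380.3 to 1091 FPKM in the T libraries; their part in the level of Cyp4f18 was not tested.

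Neighbouring Gstm genes did not move as one. All 7 Gstm genes lie within 149 kilobases of chromosome 3 (107895821 to 108044894). Within that stretch Gstm7 rose in both genotypes, Gstm2 and Gstm3 fell in both, Gstm1 fell in WT and Gstm4 in KO, and Gstm5 and Gstm6 did not pass in either as deposited. Under TPM no called member changed direction, but Gstm5 passed as higher in both (1.17 and 1.21, as above). The close relatedness of Gstm genes leaves their single levels uncertain.

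Promoters of 3 of the 4 rising members are shown because they are the exceptions to the general fall: Cyp2b10 (chr7:25897408-25897707, plus strand), Gstm7 (chr3:107931565-107931864, minus strand) and Gsta3 (chr1:21240335-21240634, plus strand), in the same window, build and direction as above. Where the table had more than 1 window for a gene, as for Gstm7, the one with the most matches is shown.
Cyp2b10: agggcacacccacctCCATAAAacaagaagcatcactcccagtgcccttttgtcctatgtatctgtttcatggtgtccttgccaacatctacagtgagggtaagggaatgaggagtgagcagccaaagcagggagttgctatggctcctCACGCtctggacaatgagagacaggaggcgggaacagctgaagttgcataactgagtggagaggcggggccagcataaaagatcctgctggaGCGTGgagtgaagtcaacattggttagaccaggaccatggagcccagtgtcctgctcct
Gstm7: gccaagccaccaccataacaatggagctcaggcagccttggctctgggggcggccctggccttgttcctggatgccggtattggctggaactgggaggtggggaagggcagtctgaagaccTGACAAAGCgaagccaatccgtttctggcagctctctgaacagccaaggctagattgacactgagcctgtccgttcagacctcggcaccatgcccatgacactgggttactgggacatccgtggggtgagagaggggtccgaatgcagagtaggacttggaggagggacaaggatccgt
Gsta3: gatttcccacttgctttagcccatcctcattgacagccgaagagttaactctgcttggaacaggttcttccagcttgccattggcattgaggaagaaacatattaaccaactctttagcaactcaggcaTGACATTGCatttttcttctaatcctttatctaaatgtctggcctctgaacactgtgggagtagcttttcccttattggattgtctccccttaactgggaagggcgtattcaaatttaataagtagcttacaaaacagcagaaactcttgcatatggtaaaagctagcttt
Both strands were searched for GCGTG (core of the AHR xenobiotic response element), TGACNNNGC (antioxidant response element, bound by NRF2), CAAAGTCCA (HNF4A), TTTATGG and TTTATTG (2 CDX2 forms) and CTTTGAT (TCF/LEF). Cyp2b10 held 2 AHR cores and a CDX2 form. Gstm7 and Gsta3 each held the antioxidant core, at positions -129 and -121 from the start site of the window shown. For Gstm7 that start site lies 203 bases inside the deposited gene, counted from its 5′ end. Its match therefore lies within the deposited gene and not before it.

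RefSeq windows were found for 121 of the 145 members and for 27025 genes in all. The antioxidant core stood in 3 of the 4 rising members (Cyp4f18, Gstm7 and Gsta3), in 4 of the 29 matched members that fell in both genotypes, in 7.44% of all matched members and in 13.99% of all genes. The HNF4A core stood in 11 members, 9.09% against 0.555% of all genes; 10 of the 11 were Cyp2c or Cyp3a genes and the other was Sult1b1. Only 2 of the 11 fell in both genotypes (Cyp2c65 and Sult1b1) and 8 were below the minimum level. The AHR core stood in 20.7% of members and 35.1% of all genes, the 2 CDX2 forms in 2.48% and 3.31% (3.21% and 5.33% of all genes), and the TCF/LEF core in 3.31% (4.29%). No TCF/LEF core stood in a tested member. These shares count letters in a window of 300 bases and say nothing of binding; matching members of a cluster share ancestry and are not independent.

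Genes that work with the members changed in the same direction for most lists. Of 34 tested other phase I enzymes (carboxylesterases, aldo-keto reductases, aldehyde dehydrogenases and the like), 23 fell and none rose in WT, and 25 fell and 1 rose in KO, with medians of -1.94 and -2.0. For this and the following lists, the share over all genes tested was 19.9% lower and 16.3% higher in WT. In KO it was 16.0% lower and 14.0% higher. The 3 with the smallest p in WT were Aldh1a7, an aldehyde dehydrogenase (-3.15 in WT and -2.91 in KO), Ces2c, a carboxylesterase (-4.14 and -4.71), and Ephx2, the soluble epoxide hydrolase (-2.35 and -2.04). Of 11 other phase II enzymes, 9 fell and 1 rose in WT and 8 fell and 1 rose in KO (medians -2.34 and -2.12). The leading genes of that list were Ethe1, a sulfur dioxygenase of mitochondria (-3.91 and -3.64), Nat2, an arylamine acetyltransferase (-2.26 and -1.67), and Mettl7b, a thiol methyltransferase (-5.77 and -5.41). Ethe1 oxidises and does not attach a group to a compound, so it is not a phase II enzyme in the sense above, though the counts include it. All 6 genes passed in both genotypes, with a largest adjusted p of 0.00026.

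Genes of cofactor supply had smaller median differences. Of 15 genes, 9 fell in WT and 7 in KO, none rose, and the medians were -0.66 and -0.60. Ugdh and Ugp2, which make the UDP-glucuronic acid used by Ugt enzymes, changed by -2.85 and -1.92 in WT and -2.72 and -1.56 in KO. Papss2, which makes the sulfate donor of Sult enzymes, changed by -1.85 and -1.89 (largest adjusted p of the 3 genes, 0.0008). Por, the electron donor of all microsomal P450, had differences of -0.059 and -0.31 (adjusted p = 0.91 and 0.55); it was named after its value was seen. Among 13 tested regulators of these enzymes 9 fell in each genotype. The 3 with the smallest p in WT were Cdx2, the intestinal homeobox factor (-5.29 and -4.99), Vdr, the vitamin D receptor (-3.23 and -3.56), and Nr1h4, the bile acid receptor FXR (-4.21 and -4.27). Of the list's other genes, picked here for their role, Nr1i2 (PXR) fell by 1.99 and 2.26, Hnf4a by 1.73 and 1.68 and Nfe2l2 (NRF2) by 1.11 and 0.68, whereas Ahr had differences of 0.41 (adjusted p = 0.078) and 0.63 (0.017).

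Transporters split. Of 14 tested, 7 fell and 4 rose in WT and 7 fell and 3 rose in KO. Over all genes tested, 19.9% fell and 16.3% rose in WT, and 16.0% fell and 14.0% rose in KO. Abcc3, an exporter of glucuronides, changed by -2.60 and -2.39, Slc51b, a subunit of the basolateral bile acid transporter, by -6.09 and -5.54, and Abcg2, an apical exporter of sulfates and drugs, by -3.76 and -3.29. Abcc2, Abcc4 and Abcc1, other exporters of conjugates, rose in both genotypes, by 2.42, 2.25 and 0.77 in WT. The mature colonocyte markers described above fell beside all of these lists, and their part in them was not tested.

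Loss of epithelial Cul4b gave no detected change in any member. In adenoma, KO minus WT called 0 of 55 members (limma, adjusted p), beside 0.00644% of all genes, which is 1 gene, Cul4b; none of the members had even an unadjusted p under 0.05, against 0.824% of all genes. In adjacent colon it again called 0 of 55, beside 0.00644% of all genes, and 2 had an unadjusted p under 0.05, against 1.47%. The fit on recovered read counts (voom in limma) called 0 in both tissues as well, and so did the fit without the KO N library of 3 months. Member estimates ran from -0.35 to 0.94 in T and from -1.16 to 1.01 in N, with medians of 0.032 and -0.038. The median half-width of the 95% intervals was 0.77 on the log2 scale, so differences of about that size in a single member could not be told from 0. Those intervals are for a single gene and, unlike the calls, are not adjusted for the number of genes tested. In T, Cul4b at -1.99 (SE 0.18) reached an adjusted p of 0.021 (limma), and the median SE of the members was 0.34. With this model and number of libraries a member could therefore differ by well over 0.77 and still not be called. Without any genotype difference, a calibrated test would give an unadjusted p under 0.05 for a fraction of about 0.05 of genes. The 0.824% in T, 1.47% in N and 1.18% in the interaction below were well under that, so these tests were conservative. The absence of calls is therefore limited evidence of no change. The model shared its age terms and its error between tissues, and their part in this was not tested.

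In T the smallest unadjusted p belonged to Gstp3, at 2.33, 4.82 and 7.61 FPKM in WT T and 5.62, 4.09 and 10.1 FPKM in KO T, with a difference of 0.39 (95% interval -0.10 to 0.88, unadjusted p = 0.11 from limma, adjusted p = 1). The groups overlapped. Next came Sult1a1 (0.31, interval -0.23 to 0.85), Gstm4 (-0.24, -0.69 to 0.21), Cyp2d34 (-0.35, -1.07 to 0.38) and Sult1d1 (0.44, -0.53 to 1.41), each of them with both signs among the 3 ages. In N it belonged to Gstm3, at 5.81, 9.97 and 25.8 FPKM in WT N and 5.47, 4.94 and 15.2 FPKM in KO N, lower in KO at each age by -0.56 (interval -1.07 to -0.049, unadjusted p = 0.035, adjusted p = 1, limma). Cyp2d37-ps, annotated as protein coding in spite of its pseudogene symbol, had 0.77 (interval 0.050 to 1.48, unadjusted p = 0.039). Sult1a1 followed with -0.51 (-1.05 to 0.029), Cyp2d12 with 1.01 (-0.25 to 2.28) and Cyp2d22 with 0.61 (-0.20 to 1.41). Of these, Cyp2d12 owed its estimate to 3 months, where KO N was 19.8 and WT N 2.51 FPKM; without the KO N library of 3 months, which stood apart, its difference was 0.13 and that of Cyp2d37-ps 0.74, that of Gstm3 -0.74 and that of Sult1a1 -0.49.

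**Figure D5:**
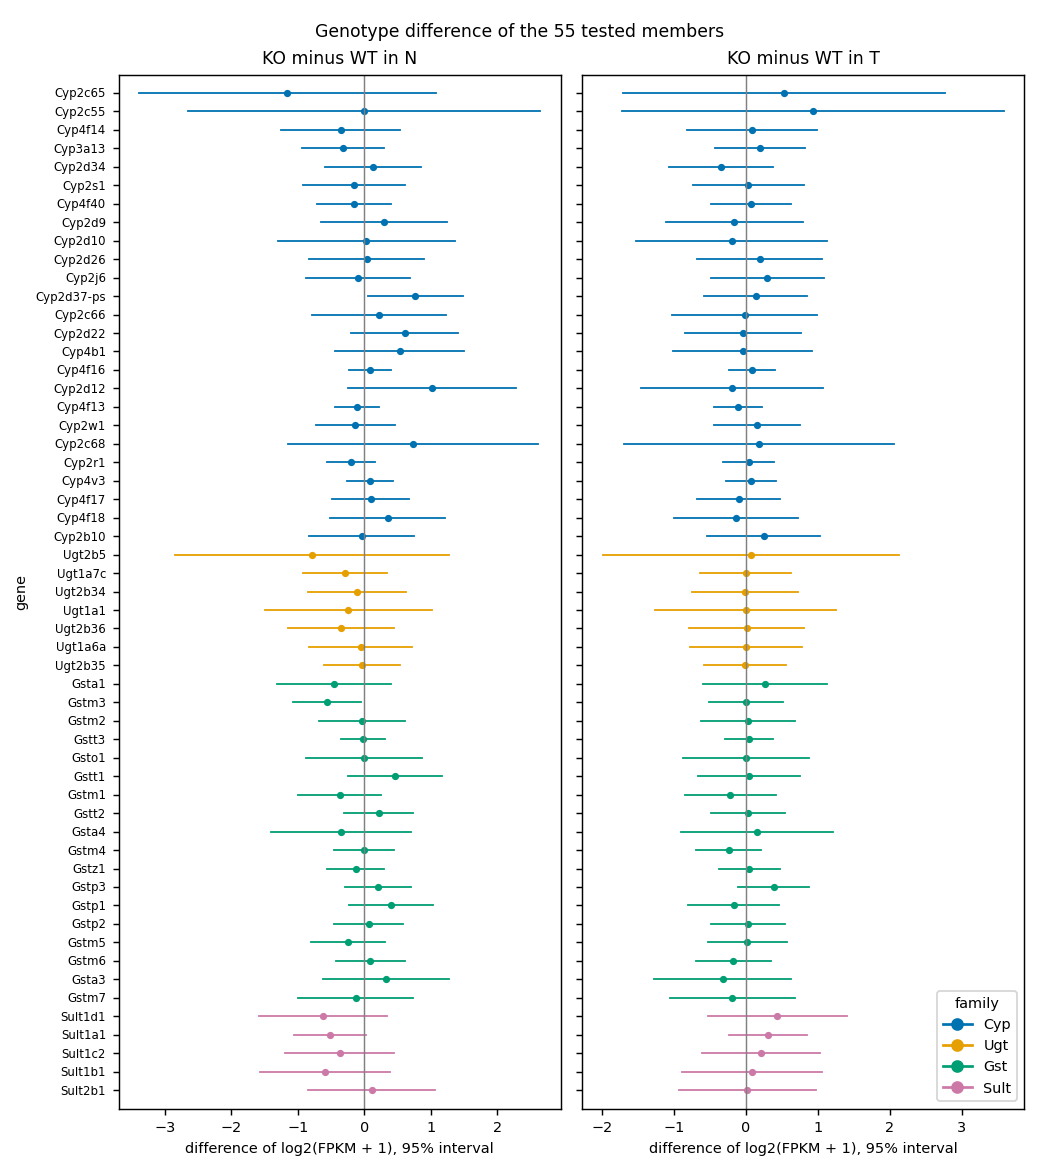
KO minus WT difference of log2(FPKM + 1) with its 95% interval for the 55 tested members, in N (left) and T (right), coloured by family. Intervals of 53 members in N and of all 55 in T include 0, and the widest belong to Cyp2c55, Cyp2c65 and Ugt2b5.

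The interaction, which asks whether the T minus N difference itself differed between genotypes, called no member and no gene (0% of all genes, limma). 1 member had an unadjusted p under 0.05, beside 1.18% of all genes. That was Sult1a1, with an estimate (KO minus WT) of 0.82 (95% interval 0.058 to 1.59, unadjusted p = 0.038, adjusted p = 1), with the same sign at all 3 ages. Estimates for the next members were 0.57 for Gstm3, 1.06 for Sult1d1, -1.20 for Cyp2d12 and -0.56 for Gstp1, with intervals of -0.16 to 1.30, -0.30 to 2.43, -2.99 to 0.59 and -1.45 to 0.33. Without the KO N library of 3 months the estimate of Cyp2d12 was -0.32. The differences of Gsta3 and Cyp4f18, called as deposited in WT and not in KO, were not shown to differ between genotypes. None of the pathway lists held a gene called between genotypes.

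Age was compared only between 3 and 4 months, which share a table. None of the 55 members was called (limma, adjusted p), beside 0.0322% of all genes, and 12 had an unadjusted p under 0.05, which is 21.8% of members beside 20.4% of all genes. The smallest p belonged to Cyp4f40, a Cyp4f gene of chromosome 17, which was higher at 4 months in all 4 groups (differences of 1.08, 1.26, 1.01 and 0.27 in WT N, KO N, WT T and KO T, 0.91 in the model, unadjusted p = 0.0022, adjusted p = 0.2). Gstp2 (0.76), Ugt1a7c (0.91) and Gsta4 (1.37) were also higher at 4 months in all 4 groups and Gstm5 (-0.72) lower in all 4, with adjusted p from limma between 0.21 and 0.22. Without the KO N library of 3 months the difference of Gsta4 was 0.90. Among the 4 N libraries of 3 and 4 months the ratio of the highest to the lowest level had a median of 6.12 over tested Ugt genes, 2.76 over Cyp, 1.82 over Sult and 1.66 over Gst genes, a spread that includes the library which stood apart.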

How the data were processed

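RNA was sequenced from 12 colon libraries in 4 groups of 3 (WT N, KO N, WT T and KO T), where T was taken as adenoma and N as adjacent normal tissue, from titles and design text together. Per the labels' protocols, libraries were made from total RNA with a NEBNext Ultra kit that is not stated to keep strand. The authors deposited FPKM for 52636 genes in 2 tables, 1 for 3 and 4 months and 1 for 5 months, with a gene length in bases (a unit other than FPKM) that was used only to recover reads. Per the submitters' processing notes, mm10, StringTie, featureCounts 1.5.0-p3 and DESeq2 were used; neither the aligner nor the annotation release is given in the sources used here. In every library 100% of values came out as whole reads (tolerance 0.01 of a read); the implied totals were 0.7197 to 1.302 times the reads in genes, so values were scaled by size factors within each table. A floor of 3 reads is 0.0524 to 0.1002 FPKM (library by library, at a length of 2 kilobases) and covers counting error only.

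Genes averaging at least 0.5 FPKM (15526) were fitted with limma 3.58.1 in R 4.3.3 on log2(FPKM + 1), with group and age as terms, eBayes with a trend, 6 residual and 3.06 prior degrees of freedom, and Benjamini-Hochberg adjustment within each of 6 comparisons. A fold change on this scale understates changes of low genes. The replicate number of a library is its age, which the labels give and which also marks its table, so age was kept as a replicate block and left out as an alternative. Other alternatives were a pseudocount of 0.1, no filter, a filter of 2 FPKM, rescaling to TPM, voom on the recovered reads, a fit of only the groups compared, and leaving out each age or each library. The fit was tested on simulated data. Members, gene lists and tests were chosen with earlier results of these data known. Genes named with values were, in each T minus N comparison, up to 10 risers and 10 fallers with the largest change (called, 1 sign at all 3 ages, at least 2 FPKM in the higher group), the 3 most abundant of each family, the 5 smallest p in the other comparisons, the 3 smallest p of each pathway list in WT, and Cul4b; others were picked after their values were seen. Exon overlaps were counted in GENCODE M21 (mm10) and promoters read from RefSeq windows. Another 25 rows whose symbol fits the rule but which are not annotated as protein coding (highest value 3.46 FPKM) were left out.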

Additional observations from a re-analysis of the deposited data

How the results depend on the processing

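Members called higher and lower in T numbered 4 and 34 in WT and 2 and 36 in KO. With a pseudocount of 0.1, without a filter and with voom on recovered reads these counts stayed within 1.5 times. Without the replicate block they were 2 and 24 in WT and 1 and 26 in KO. Rescaling to TPM gave 11 and 26 in WT and 9 and 30 in KO, a filter of 2 FPKM left 1 higher in KO (fewer genes tested), and a fit of only the groups compared gave 1 and 22 in KO (fewer libraries). Without 1 age, higher calls ranged over 1 to 3 in WT and 1 to 3 in KO and lower calls over 22 to 30 and 24 to 32; without 1 library the ranges were 2 to 4, 1 to 3, 28 to 36 and 28 to 37. No member was called between genotypes, in the interaction or between ages under any alternative run. No named member that had passed as reported changed sign. Of those that had not passed, Gstp1 turned positive in WT under TPM (0.87), without 1 age (-0.39 to 0.30, with 0.020 without 3 months), without WT N of 3 or 5 months (0.030 and 0.20) or WT T of 5 months (0.19), and in KO under TPM (0.058). Ugt2b35 turned positive in WT under TPM (0.78), without 1 age (-0.33 to 0.16) and without WT T of 4 months (0.17), and in KO under TPM (0.58), without 1 age (-0.27 to 0.27) and without KO N or KO T of 4 months (0.25 and 0.078). Sult1d1 between genotypes in T became -0.025 without KO T of 5 months, and ranged from that to 1.08 over the fits without 1 library or age. Apart from the number of genes and libraries named above, the cause was not tested. Depth limits members near a floor of 3 reads, which is 0.0524 to 0.1002 FPKM by library at a length of 2 kilobases and lower for longer genes.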

Other observations

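Gstm1, a mu-class transferase, set the 5-month libraries apart in all 4 groups. With reads of the 12 libraries put on 1 common scale by size factors, it had 5869 normalised reads in WT N, 3389 in KO N, 1854 in WT T and 2103 in KO T at 5 months, and 197 to 710.4 in the 8 libraries of 3 and 4 months. It was the only member at least 2-fold above the highest younger library in every library of 5 months; 5 of 15526 genes (0.0322%) were. The pattern was picked out after the values were seen, and the 5-month libraries stand in a table of their own, so age and the making of that table cannot be told apart.

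Hepatocyte transcripts were looked at because many members are liver genes. The summed level of 8 hepatocyte markers was 19.4 to 48.7 FPKM in N and 15.4 to 80.6 FPKM in T, in libraries where Cyp3a11, Cyp2e1 and Cyp1a2 stayed at or under 1.11 FPKM. Part of that list, such as Ttr, is also made outside the liver.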
